A study of Mus musculus with 16 samples.

Results

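Granzymes and the genes that work with them were followed through 9 genes of the 32285 in the deposited matrices: the granzymes Gzma, Gzmb, Gzmc, Gzmk and Gzmm, the pore-forming protein Prf1, the granule membrane protein Nkg7, the death ligand Fasl and the cytokine Ifng. They were listed by their function as cytotoxic effector genes and were read in 2 sources of lymphocytes from mice on the DDC diet, chow that held 0.1% of a dihydrocollidine compound and injures the bile ducts. The first source was 5 pools of sorted γδ T cells (CD45+ CD3e+ TCRβ- TCRγδ+) in which an antibody hashtag marked each tissue and diet arm. The second was 3 CITE-seq libraries of the liver-draining lymph nodes (LN, pooled hepatoduodenal and celiac nodes), from which NK and CD8 T cells were taken by their RNA.

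The mice were young adult C57BL/6J males. Arms were named for the day of diet: D0 (no DDC), D5, D9 and D19. For the LN pool of D19 and STOP the sample's description gives days 18 and 19. In STOP, 18 days of DDC were followed by 7 days of normal chow. In D5-DT, Mgl2-DTR mice, in which the diphtheria toxin receptor is driven from the Mgl2 locus of CD301b+ dendritic cells and other cells that use it, received diphtheria toxin on days -1 and 2 of a 5-day diet, so that arm differed from D5 in genotype as well as in toxin. There were 11 arms, 6 of liver and 5 of LN (no LN arm at D9), and each was 1 hashtag in 1 pool. The CITE libraries were D0, D5 (the sample's description gives day 6) and D19. The number of mice behind an arm or library is not given in the sources used here.

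Cytotoxic lymphocytes store granzymes, which are serine proteases, in secretory granules. On contact with a target the granules fuse with the cell membrane, perforin opens the way into the target, and the granzymes cleave proteins there. Fas ligand kills through a receptor on the target instead, and interferon-γ, the product of Ifng, acts on macrophages and on epithelial and endothelial cells. NK cells and memory CD8 T cells are the usual bearers of this program, and γδ T cells divide broadly into a kind that makes interferon-γ and carries NK receptors and a kind that makes interleukin-17. The cells were therefore split by the RNA of the NK receptors Klre1 and Klrb1c, the gene of NK1.1: a γδ T cell with at least 1 UMI (unique molecular identifier, 1 captured RNA molecule) of either was called receptor-positive, and any other receptor-negative. Of 32065 γδ T cells, 6233 were receptor-positive and 25832 receptor-negative. The CITE libraries gave 654 NK cells (372 at D0, 109 at D5 and 173 at D19) and 3026 CD8 T cells (1114, 698 and 1214).

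The promoters of 4 members are shown because these genes behaved most differently between tissues below: Gzma, Gzmb and Gzmc, which were high in liver γδ T cells and far lower in LN ones, and Ifng, which did not show this split. They run from 250 bases before the annotated start to 50 bases after it, gene strand, from RefSeq on GRCm38.p6. Gzma lies on chromosome 13 (chr13:113100932-113101231, minus strand), Gzmb and Gzmc close together on chromosome 14 (chr14:56262285-56262584 and chr14:56234608-56234907, both minus) and Ifng on chromosome 10 (chr10:118440796-118441095, plus). Capitals mark matches, on either strand, to a Runx motif (TGTGGTT, or AACCACA on the other strand), an AP-1 motif (TGANTCA), a STAT motif (TTCNNNGAA) or a T-box motif (GGTGTGA).
Gzma: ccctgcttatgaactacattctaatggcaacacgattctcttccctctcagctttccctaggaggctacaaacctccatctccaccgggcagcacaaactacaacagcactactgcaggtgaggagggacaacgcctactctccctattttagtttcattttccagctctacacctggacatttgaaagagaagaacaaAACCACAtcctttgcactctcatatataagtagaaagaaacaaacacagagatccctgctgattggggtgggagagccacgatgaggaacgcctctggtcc
Gzmb: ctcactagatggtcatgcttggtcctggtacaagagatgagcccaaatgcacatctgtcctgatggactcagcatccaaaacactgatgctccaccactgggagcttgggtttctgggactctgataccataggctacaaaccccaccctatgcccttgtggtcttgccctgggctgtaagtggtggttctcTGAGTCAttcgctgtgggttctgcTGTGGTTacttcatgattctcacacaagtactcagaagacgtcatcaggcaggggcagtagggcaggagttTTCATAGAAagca
Gzmc: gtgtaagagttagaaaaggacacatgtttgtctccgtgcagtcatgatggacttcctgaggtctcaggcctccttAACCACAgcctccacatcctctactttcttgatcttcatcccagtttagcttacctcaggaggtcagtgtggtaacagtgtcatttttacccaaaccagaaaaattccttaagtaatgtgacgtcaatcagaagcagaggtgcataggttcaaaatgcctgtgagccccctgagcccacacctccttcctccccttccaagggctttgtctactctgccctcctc
Ifng: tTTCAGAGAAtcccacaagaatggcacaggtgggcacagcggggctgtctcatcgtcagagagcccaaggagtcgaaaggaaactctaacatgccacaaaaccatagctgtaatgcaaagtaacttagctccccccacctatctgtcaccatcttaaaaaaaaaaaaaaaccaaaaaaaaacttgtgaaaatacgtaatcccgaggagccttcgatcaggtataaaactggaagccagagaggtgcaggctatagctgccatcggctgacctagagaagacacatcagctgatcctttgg

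The Runx letters stood in the promoters of Gzma (first base at -51 from the start), Gzmb (-34) and Gzmc (-175) and in that of no other member. Of 32851 promoters of this length in the reference table, 1731 (5.27%) held them. Gzmb also held the AP-1 letters at -58 (7.81% of all promoters) and the STAT letters at 38 (8.30%), and the STAT letters also stood in Ifng at -249, Nkg7 at -220 and the first promoter listed for Gzmm at -86. The T-box letters (3.98% of all promoters) were found in Gzmk at -75, in Nkg7 at -13 and in the second promoter listed for Gzmm at -189. These matches describe letters in a window. No binding was measured here.

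The 8 libraries held 13074668 to 71447265 RNA UMIs and 1719 to 12487 barcodes with at least 1000 UMIs, and any pair of libraries shared 0 to 29 of those barcodes, at most 0.368% of the smaller library. In the γδ T pools 90.3% to 96.3% of the filtered cells were assigned to 1 arm. The sorted identity held in the receptor-positive cells, of which 93.7% to 100% had a Cd3 UMI and 87.3% to 98.6% a UMI of Trdc, the γδ receptor's δ constant gene. It did not hold as well in the receptor-negative cells of LN D19 and LN STOP, where 55.0% and 59.1% had a Cd3 UMI against 90.9% to 99.6% in the other arms, so those 2 classes contained cells that were not T cells by their RNA. The NK cells were gated on Ncr1, Klrk1 and Eomes among other genes, so these check nothing, and of the NK genes outside the gate Tyrobp and Fcer1g were above 20 CPM (counts of a gene scaled to a common total per class). Of the NK cells, 1.83% to 4.05% were above the threshold for surface CD3 against 90.9% to 98.3% of CD8 T cells. A Trdc UMI was found in 21.8%, 26.6% and 13.9% of the NK cells at D0, D5 and D19 and in 1.65% to 2.72% of the CD8 T cells, and the part of Trdc-bearing cells in the NK levels was not tested.

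Levels below are CPM after adding up the UMIs of all cells of a class within each arm, and n counts arms or libraries. There was 1 arm per tissue and diet condition, so a difference between diet days had no replicate and no test. Such differences are given as log2 ratios with exact 95% intervals that cover counting error alone, and these are too narrow, because many UMIs of a gene can come from few cells. Differences between cell classes, tissues and lineages had several arms or libraries and were tested across all genes with edgeR's quasi-likelihood test and Benjamini-Hochberg adjustment, called at an adjusted p under 0.05. Those p-values measure the spread between arms or libraries, which edgeR partly pools over genes. Liver and LN arms of 1 condition may hold the same mice, so arms may not be independent. With the 6 conditions as units instead, 8 of 9 members were called higher in receptor-positive than in receptor-negative γδ T cells. In that fit 1724 of 11827 genes were called in either direction.

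Gzma, a trypsin-like granzyme, was at 1517 CPM for D0 liver γδ T cells with a receptor UMI, 2739 for D5, 1300 for D9, 1984 for D19, 1441 for STOP and 1327 for D5-DT. In the receptor-negative cells of the same arms it was at 54.8, 89.4, 113, 92.4, 75.1 and 230 CPM. In receptor-positive LN cells it was at 176 CPM at D0, 68.3 at D5, 0 at D19, 10.2 at STOP and 177 at D5-DT. In the receptor-positive class the lowest liver arm, D9, was at 1300 CPM and the highest LN arm, D5-DT, at 177. How many of all genes separate the tissues in this way was not counted. In the LN the receptor-positive class exceeded the receptor-negative one (145, 136, 143, 180 and 176 CPM) in 2 of 5 arms. The value of 0 at LN D19 came from 42 cells and allows up to 17.8 CPM (3 counts).

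Gzmb, the granzyme that cleaves after aspartate and starts caspase-type death, was at 1386, 1846, 824, 1606, 1494 and 881 CPM in receptor-positive liver cells at D0, D5, D9, D19, STOP and D5-DT. The receptor-positive LN cells had 27.1 CPM at D0, 24.7 at D5, 11.8 at D19, 13.1 at STOP and 71.8 at D5-DT. Its mean was 1340 ± 407 CPM (SD, n = 6 arms) in liver and 29.7 ± 24.5 (n = 5) in LN. The lowest liver arm, D9, was at 824 CPM and the highest LN arm, D5-DT, at 71.8.

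Gzmc, which lies beside Gzmb in the granzyme cluster of chromosome 14, followed the same split at lower values: 34.9, 95.4, 74.7, 96.2, 103 and 29.9 CPM in the liver arms and 0.90, 0.31, 0, 0 and 2.82 in the LN arms. Liver D0 and D5-DT were the low pair in liver. Gzmk, a granzyme of memory CD8 T cells, stayed between 0.52 and 4.81 CPM in receptor-positive liver cells and between 0 and 4.14 in LN ones, too low to be read in γδ T cells. Gzmm, a granzyme known from NK and innate-like T cells, ran the other way from Gzma: 3.04 to 12.8 CPM in liver and 59.5, 28.7, 11.8, 18.9 and 11.3 in LN at D0, D5, D19, STOP and D5-DT.

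Prf1, perforin, was at 102.1, 109, 46.6, 69.7, 41.7 and 58.4 CPM in receptor-positive liver cells and at 57.7, 45.7, 29.6, 45.03 and 33.1 in LN cells, so the tissues overlapped. Nkg7, which granule release needs, was at 1592, 1520, 902, 724, 1348 and 1054 CPM in liver and at 1219, 1002, 450, 797 and 625 in LN, and overlapped as well. Fasl was at 181, 157, 112, 139, 104 and 119 CPM in liver and at 149, 133, 107, 134 and 69.0 in LN, with the D5-DT arm of LN the lowest. For Ifng the liver arm without DDC stood alone: 401 CPM at D0 against 140, 119, 112, 192 and 110 at D5, D9, D19, STOP and D5-DT, and 154, 142, 154, 189 and 71.8 in LN.

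**Figure D1:**
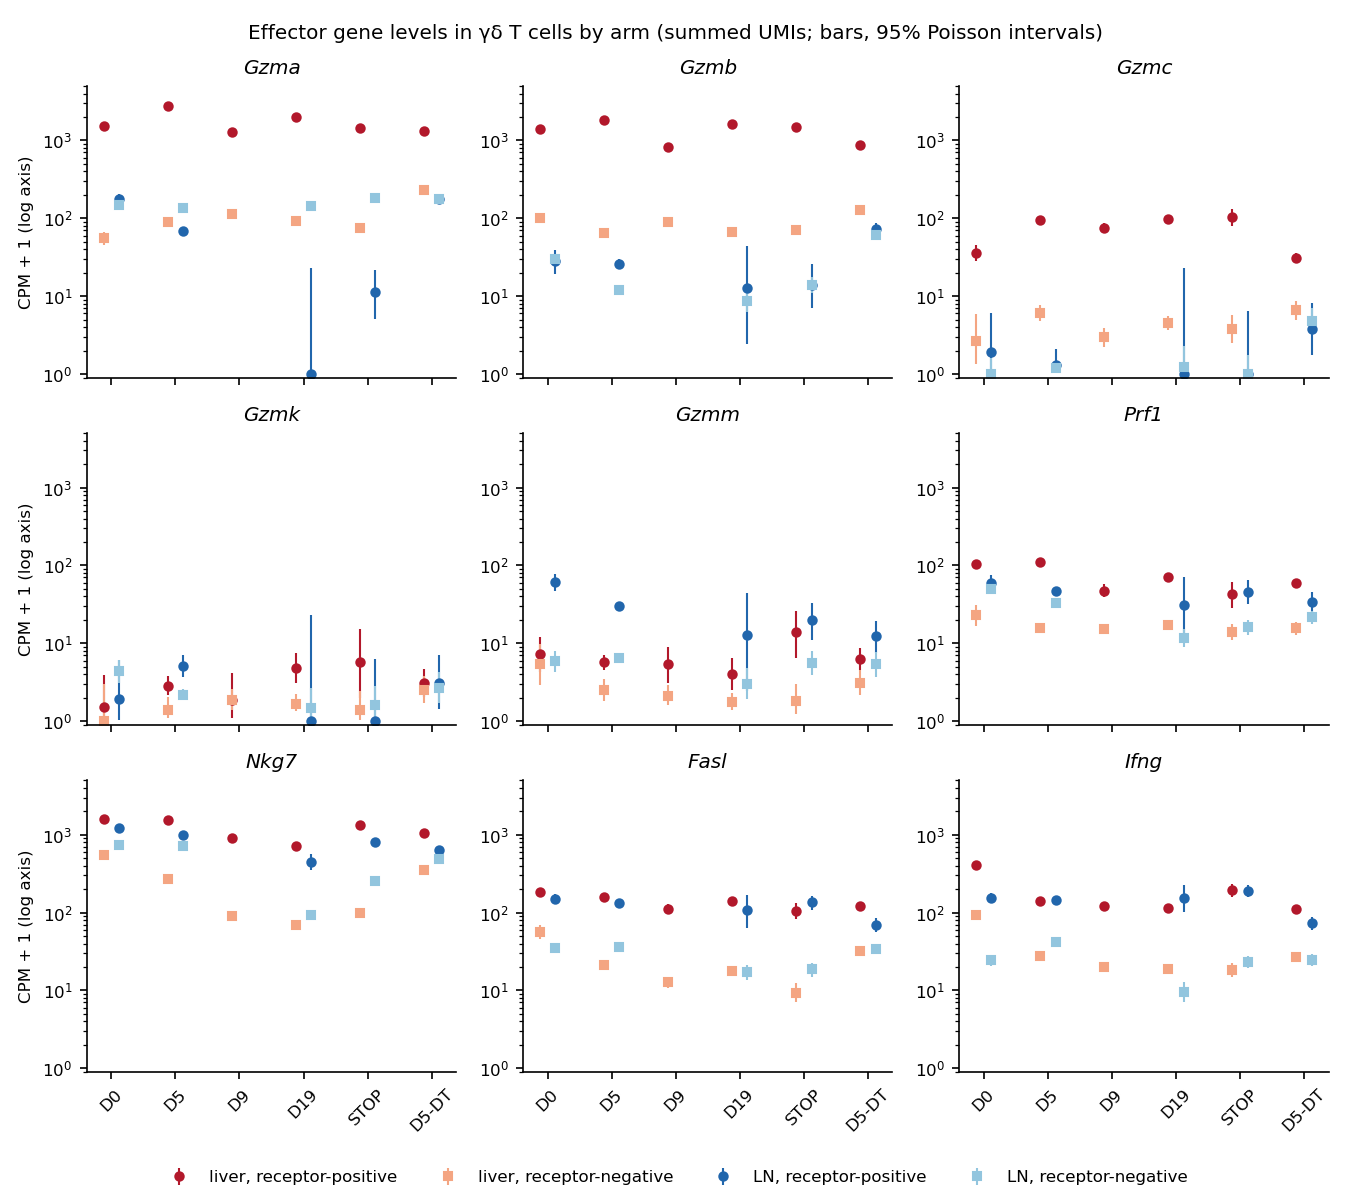
Level of each of the 9 genes (CPM of summed UMIs plus 1, log axis, with 95% Poisson intervals) in receptor-positive and receptor-negative γδ T cells of the 6 liver and 5 LN arms. Gzma, Gzmb and Gzmc of receptor-positive cells are high in all liver arms and low in all LN arms, while Ifng, Fasl and Nkg7 are higher in receptor-positive than in receptor-negative cells in both tissues.

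Receptor-positive γδ T cells carried more RNA of most members than receptor-negative cells of the same arm. In the fit over 11 arms, with the arm as a block, 7 of the 8 members tested were higher in receptor-positive cells and none was lower, where 20.2% of the 10556 genes tested were called in either direction. Ifng was higher by 2.52 on the log2 scale (SE 0.17, edgeR adjusted p = 3.42e-07) and Fasl by 2.44 (SE 0.21, adjusted p = 2.12e-06), and both were higher in 11 of 11 arms. Gzmc was higher by 3.93 (SE 0.45, adjusted p = 3.25e-05), Gzmb by 2.77 (SE 0.53, adjusted p = 0.00174), Gzmm by 2.16 (SE 0.27, adjusted p = 4.45e-05), Nkg7 by 1.95 (SE 0.33, adjusted p = 0.000623) and Prf1 by 1.58 (SE 0.23, adjusted p = 0.000157). Gzmm passed the filter on low counts through the receptor-positive cells, so its call is a description.

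Gzma was the exception, with a log2 difference of 2.06 (SE 0.88) and an edgeR adjusted p of 0.12, and Gzmk was too low to be tested. In the liver arms alone 8 members were higher, where 28.1% of the genes tested were called, Gzma by 4.10 with an adjusted p of 4.94e-06. In the LN arms alone 4 of 7 tested were higher, where 3.98% were called, and Gzma was at -1.00 with an adjusted p of 0.44. Leaving out LN STOP also called Gzma (2.49, edgeR adjusted p = 0.0392), as did leaving out the deepest 5% of cells (2.90). So did requiring a Cd3 UMI together with no UMI of Cd79a, Lyz2 and H2-Ab1 (3.15). Markers of other cell types were lower in receptor-positive cells in the fit over 11 arms, among them Ttr (-2.07), Cd79a (-1.81), Ms4a1 (-1.69), Ccr7 (-1.67), S100a9 (-1.51), Lyz2 (-1.50) and H2-Ab1 (-1.26). With that joint requirement for Cd3, Cd79a, Lyz2 and H2-Ab1, all 8 members tested were higher in receptor-positive cells. There, 2122 of the 9558 genes tested were called in either direction.

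Whether the class difference depended on the tissue was tested by an interaction of cell class and tissue, added after the levels had been seen. The class difference was larger in liver for 5 of the 8 members tested, against 5.42% of all genes called. Gzmc, 1 of these, was at 3.77 CPM or less in both classes of every LN arm, so its call is a description. The extra log2 difference in liver was 5.01 for Gzma (SE 0.62, edgeR adjusted p = 0.000535), 3.50 for Gzmb (SE 0.40, adjusted p = 0.000286), 4.23 for Gzmc (SE 1.05, adjusted p = 0.0314, with 7 UMIs in all in receptor-positive LN cells), 1.51 for Prf1 (SE 0.23, adjusted p = 0.00235) and 1.73 for Nkg7 (SE 0.44, adjusted p = 0.0322). For Ifng it was 0.12 (adjusted p = 0.944), for Fasl 0.71 (adjusted p = 0.32) and for Gzmm -0.69 (adjusted p = 0.557), none of them called. By median over arms, receptor-positive cells exceeded receptor-negative ones in log2 level by 4.34 in liver and -0.49 in LN for Gzma, and by 2.51 in liver and 2.72 in LN for Ifng.

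The receptor RNA also graded the granzymes within liver. At liver D5, Gzma was at 89.4 CPM in cells with 0 receptor UMIs, 383 with 1, 1090 with 2 or 3 and 3482 with 4 or more. Gzmb had the same order, at 64.6, 385, 849 and 2302 CPM. The Gzma order was broken at liver D9, with 113 CPM for 0 UMIs and 44.5 for 1, and at liver D5-DT, with 508 for 1 and 393 for 2 or 3. Ifng kept this order at liver D0 (91.8, 306, 411 and 444 CPM) but not at liver D5: it was there at 26.9, 103, 188 and 137 CPM, with its highest value in the cells with 2 or 3 receptor UMIs. At LN D5 the same steps gave Gzma 136, 73.8, 36.5 and 118 CPM, with no order, and Ifng 40.5, 131, 144 and 172. The 4 groups of liver D5 cells had median depths of 4762.5, 4637, 4307.5 and 5115 UMIs per cell.

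**Figure D2:**
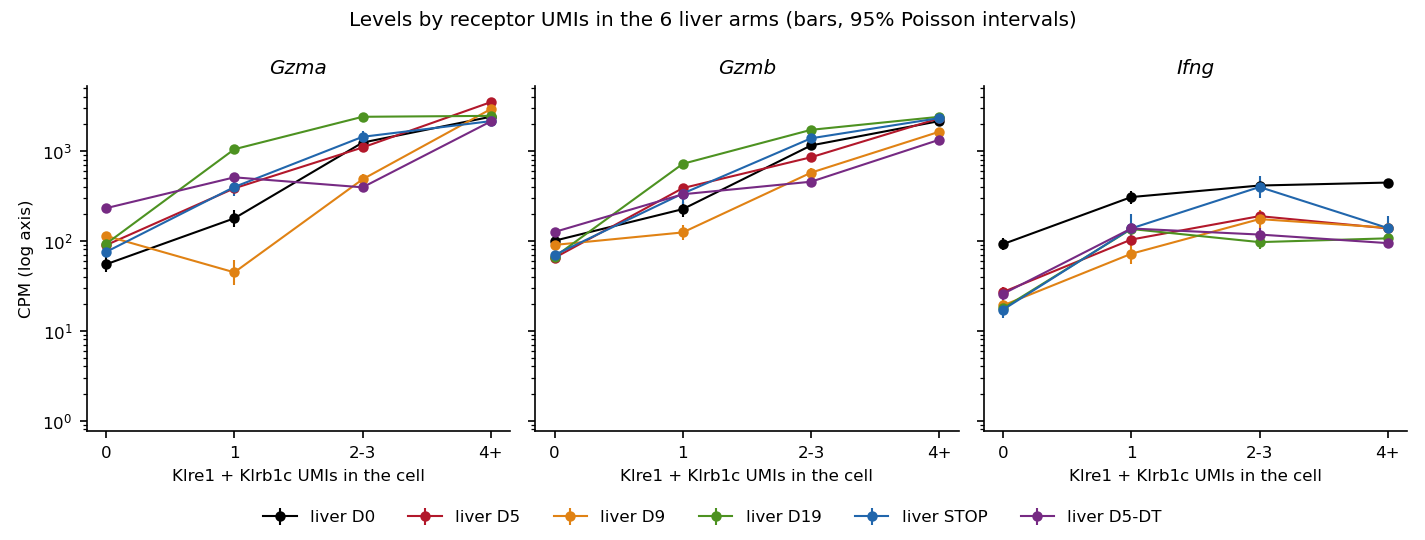
Level (CPM of summed UMIs, log axis, with 95% Poisson intervals) of Gzma, Gzmb and Ifng in γδ T cells of the 6 liver arms, grouped by the number of Klre1 and Klrb1c UMIs in the cell (0, 1, 2 or 3, 4 or more). At D5 Gzma runs from 89.4 to 3482 CPM along the groups, while Ifng has its highest level, 188 CPM, in the group with 2 or 3.

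How many cells carried the RNA was read after thinning each cell to 1000 UMIs. Gzma was then detected in 29.2%, 42.8%, 16.5%, 32.6%, 21.2% and 30.2% of receptor-positive liver cells at D0, D5, D9, D19, STOP and D5-DT (unthinned, 42.2%, 54.6%, 33.0%, 42.4%, 29.5% and 59.5%). The background was taken from T17-type γδ T cells, receptor-negative cells with a UMI of Il23r, Cd163l1 or 5830411N06Rik, which are of the interleukin-17 kind. Of those, 4.52%, 3.40%, 3.87%, 2.87%, 3.64% and 16.1% had Gzma in the same arms. All 6 liver shares therefore lay above their background, with median depths of 3852 to 6171 UMIs in receptor-positive cells and 2677 to 5199 in T17-type cells.

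In the LN the receptor-positive share with Gzma was 1.94% at D0, 1.33% at D5, 0 of 42 cells at D19 (up to 7.14%), 0 of 103 at STOP (up to 2.91%) and 11.8% at D5-DT. The T17-type shares of those arms were 2.10%, 1.88%, 0, 1.33% and 16.98%, so no LN arm lay above this background. In LN D5-DT, Gzma was at 109 CPM in the cells with 2 or 3 receptor UMIs and at 717 in the 20 cells with 4 or more, and Gzmb at 42.5 and 245. Of the 195 Gzma UMIs in receptor-positive LN D0 cells, 194 came from 10 cells, and of the 445 at LN D5, 363 did. The free RNA of that pool, from barcodes of 10 to 100 UMIs, held Gzma at 427 CPM, above both LN receptor-positive levels. In the liver pool of D0, D5 and D9 the free RNA held Gzma at 1669 CPM, above the receptor-positive levels of D0 and D9, and Gzmb at 1099, above that of D9, while the T17-type cells of these arms held Gzma at 35.0 to 41.8 CPM. Free RNA was also subtracted at 5% of each class's UMIs. Then 7 of 8 members were called higher in receptor-positive cells, with 2056 of 10483 genes called. Between liver and LN, 5 of 8 were called higher in liver and 1 lower, with 573 of 8618 genes called. Larger parts of free RNA were not tested. In the liver D5 arm the 10 cells richest in Gzma, of 1980, held 5.94% of its UMIs. At liver D9 the richest 10 of 358 held 54.1% and at STOP the richest 10 of 146 held 60.6%. The levels of D9 and STOP therefore rest on few cells.

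Gzmb was detected in 43.9%, 56.8%, 25.7%, 48.8%, 42.5% and 38.3% of receptor-positive liver cells after thinning, against 3.33% to 9.23% of T17-type cells. Ifng was detected in 28.6% of receptor-positive liver cells at D0 and in 7.82% to 11.1% of the later liver arms, and in 13.1%, 12.1%, 11.9%, 17.5% and 4.98% of the LN arms. T17-type cells had Ifng in 0.375% to 2.82% in liver and in 0% to 1.31% in LN. The Ifng share was thus above this background in all 11 arms, with overlapping 95% intervals at LN D19 and LN D5-DT.

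The granzymes sat in the same liver cells, and Ifng did not follow them. At liver D5, 80.3% of receptor-positive cells with a Gzma UMI also had Gzmb (95% exact binomial interval 77.4 to 82.9), against 39.3% (36.4 to 42.2) of those without Gzma. The same pair of shares was 78.6% and 29.6% at D0, 67.8% and 17.4% at D9, 74.3% and 36.5% at D19, 74.2% and 33.9% at STOP and 60.3% and 28.8% at D5-DT. Gzmc was found in 9.96% of Gzmb-bearing and 2.46% of other receptor-positive cells at D5. Ifng was found in 11.3% of cells with Gzmb and 10.9% of cells without at D5, and in 30.3% and 27.3% at D0, with overlapping intervals. Cells of 1 arm share their source, and these shares are a description.

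Among the members, liver exceeded LN most in Gzma, Gzmb and Gzmc. Over the 5 conditions with both tissues, with the condition as a block, 6 of the 8 members tested differed, 5 of them higher in liver, where 7.19% of the 8733 genes tested were called. Gzmb was higher in liver by 5.50 on the log2 scale (SE 0.38, edgeR adjusted p = 9.19e-07) and Gzma by 4.49 (SE 0.53, adjusted p = 7.47e-05), each higher in 5 of 5 conditions. Gzmc, with 1, 2, 0, 0 and 4 UMIs in the LN arms, passed the filter on low counts only through the liver arms, so its call had to follow, and its fitted difference of 6.51 ran from 4.98 to 7.72 when each condition was left out. Prf1 was higher by 0.81 (SE 0.18, adjusted p = 0.0113) and Nkg7 by 0.62 (SE 0.15, adjusted p = 0.0185). Gzmm was lower in liver (log2 difference -2.21, SE 0.34, adjusted p = 0.000883). It passed the filter on low counts through the LN arms, where it was high, so this call is a description. Fasl (0.25, adjusted p = 0.476) and Ifng (0.34, adjusted p = 0.402) did not pass.

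The calls of Prf1 and Nkg7 rested on single conditions: Prf1 was lost without D0 (adjusted p = 0.0524) or D5 (0.154), and Nkg7 without D5 (0.0691), STOP (0.1) or D5-DT (0.0624) and with the receptors counted after thinning (0.0617). Liver and LN cells ran in separate lanes in 4 of the 5 conditions, where tissue and lane cannot be told apart. In D5-DT both tissues shared a lane, and liver was there higher in log2 level by 2.90 for Gzma (95% interval 2.72 to 3.09), 3.62 for Gzmb (3.33 to 3.91), 3.41 for Gzmc (2.02 to 5.30) and 0.82 for Prf1 (0.37 to 1.29), with Gzmm at -1.08 (-2.02 to -0.10). Of the 6 members with a mean of at least 20 CPM in that pair, Gzma and Gzmb were past 2-fold, against 5.06% of all such genes. Past 2-fold lower in liver there were the other-cell markers Cd79a, Cd79b, Ighm, Csf1r, C1qa, H2-Ab1 and Ccr7. Past 2-fold higher were Klre1 and Klrb1c, used for the split, and the NK genes Ncr1, Klrk1 and Fcer1g. Their part was not tested.

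**Figure D3:**
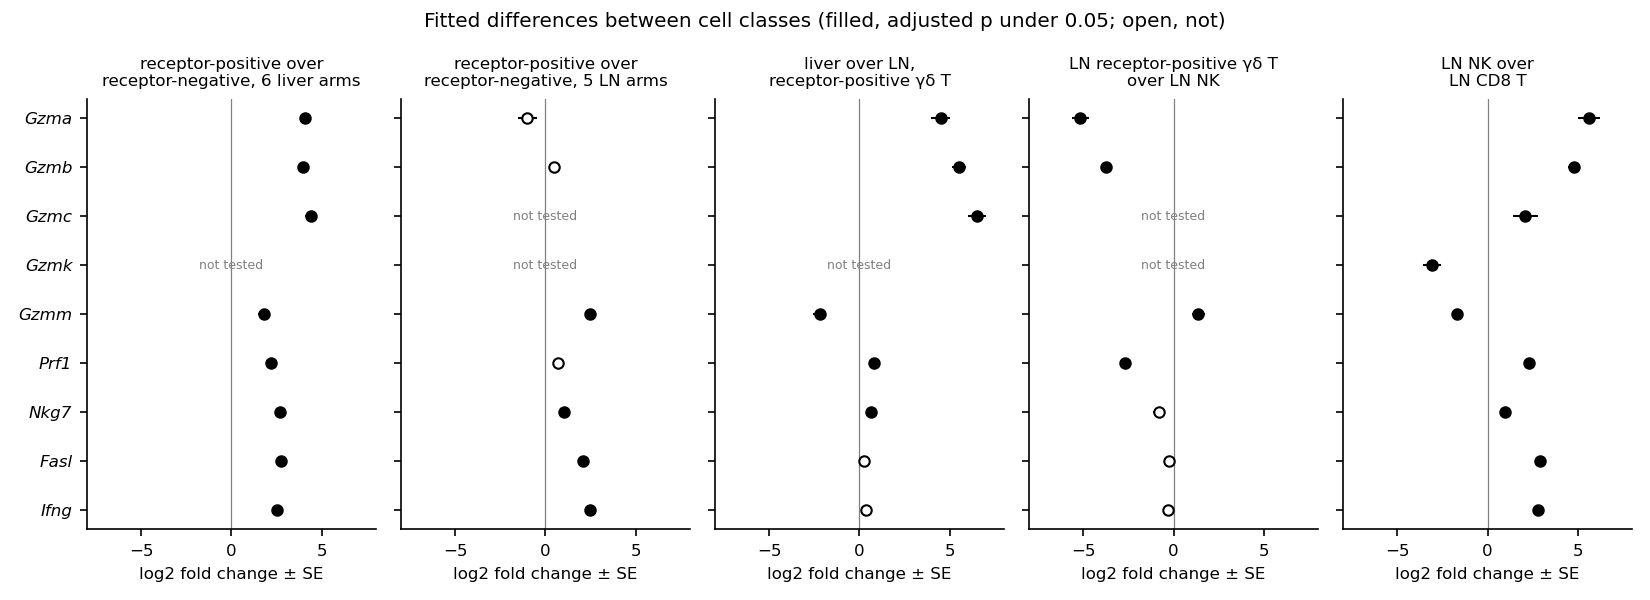
Fitted log2 differences with their standard errors for each member in 5 fits: receptor-positive over receptor-negative γδ T cells in the 6 liver arms and in the 5 LN arms, liver over LN, LN γδ T over LN NK cells, and NK over CD8 T cells (filled points passed the test, open points did not). Gzma is at 4.10 in the liver arms and -1.00 in the LN arms, and Gzma, Gzmb and Prf1 are negative in LN γδ T over NK cells.

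In liver, most Gzma and Gzmb RNA of the γδ T compartment lay in the receptor-positive cells (in LN it did not). These cells were 353 of 697 cells at liver D0 (50.6%, exact 95% binomial interval 46.9 to 54.4), 1980 of 3928 at D5 (50.4%, 48.8 to 52.0), 358 of 2623 at D9 (13.6%, 12.4 to 15.0), 846 of 6652 at D19 (12.7%, 11.9 to 13.5), 146 of 1633 at STOP (8.94%, 7.60 to 10.4) and 775 of 2035 at D5-DT (38.1%, 36.0 to 40.2). T17-type cells were 25.4%, 33.7%, 76.7%, 68.1%, 80.8% and 40.0% of the same arms. With the receptor UMIs counted after thinning to 1000 UMIs per cell, the shares at D5 and D9 were 32.1% and 5.18%. In LN the receptor-positive shares were 13.4% at D0, 11.7% at D5, 5.33% at D19, 13.2% at STOP and 20.6% at D5-DT. Cells were sorted and pooled before loading, so these are shares of an arm and say nothing about cell numbers in the tissue.

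Even where they were few, the receptor-positive cells held most Gzma and Gzmb UMIs of a liver arm. Their part of all Gzma UMIs was 96.7%, 97.3%, 69.1%, 82.7%, 70.5% and 82.0% in the 6 liver arms, and their part of Gzmb 93.6%, 97.2%, 64.1%, 84.4%, 72.8% and 84.8%. Ifng was held to 82.3%, 86.2%, 54.8%, 58.5%, 58.3% and 77.2%. In the LN they held 17.8%, 6.95%, 0%, 0.816% and 23.1% of Gzma at D0, D5, D19, STOP and D5-DT and 14.5%, 25.0%, 5.56%, 12.9% and 26.5% of Gzmb, but 54.1%, 34.3%, 40.6%, 55.3% and 47.7% of Ifng.

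**Figure D4:**
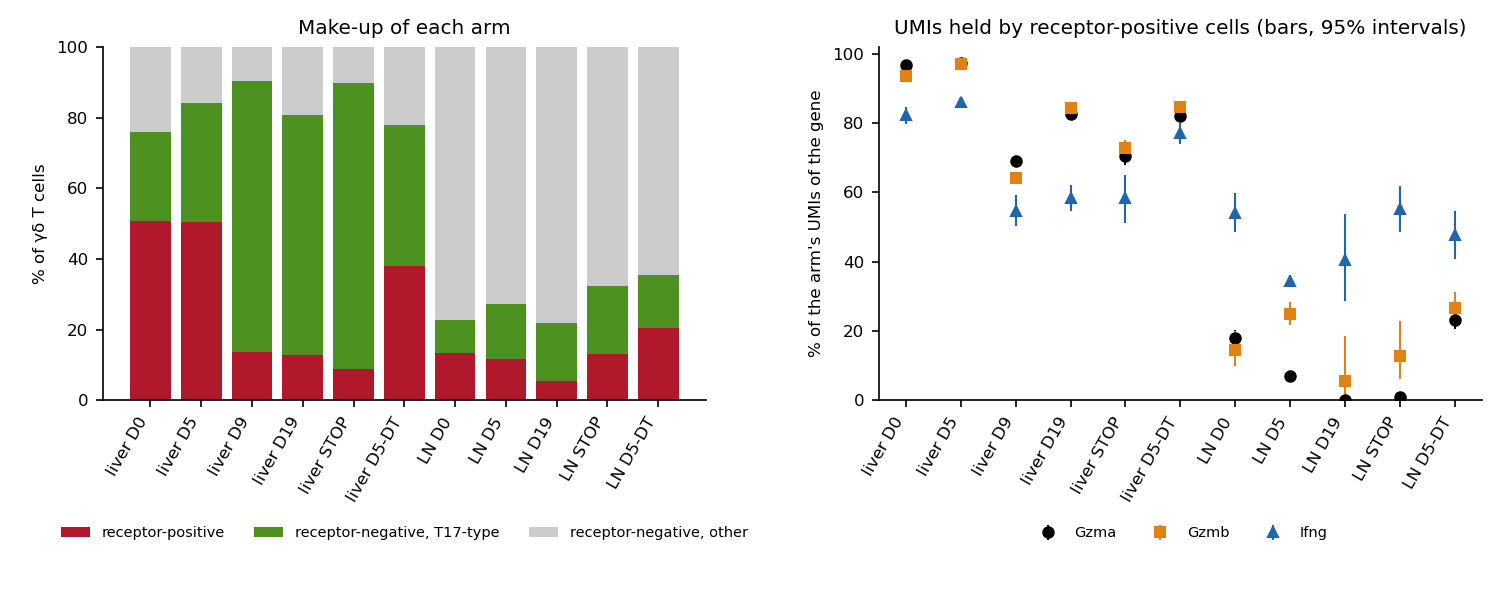
Left, the percent of γδ T cells of each arm that were receptor-positive, T17-type or neither, and right, the percent of the arm's Gzma, Gzmb and Ifng UMIs that its receptor-positive cells held, with 95% intervals. In liver the receptor-positive share is 50.6% at D0 and 50.4% at D5 and 8.94% to 13.6% at D9, D19 and STOP, while their part of Gzma UMIs stays at 69.1% or more.

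Within the receptor-negative cells of liver, Gzma and Ifng were lower in the T17-type cells than in the other cells in all 6 arms. Gzma was at 67.1, 202, 729, 293, 442 and 358 CPM in the other cells and at 41.8, 35.0, 35.8, 35.9, 26.6 and 159 in the T17-type cells. Ifng was at 134, 63.1, 94.0, 50.3, 114 and 54.3 CPM against 47.5, 9.42, 9.64, 8.54, 4.29 and 9.81. The T17-type cells of D5-DT stood above the other T17-type cells in Gzma, and that pool's free RNA held Gzma at 818 CPM. Few cells can decide such levels, and the part of the richest cells in these liver levels is not given here. In the LN, few cells did decide them: at LN STOP all 453 Gzma UMIs of T17-type cells lay in 2 cells.

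Over the first days of diet the liver levels differed in opposite directions between genes. In the pool that held D0, D5 and D9 together, the D5 to D0 log2 ratio in receptor-positive cells was 0.85 for Gzma (95% interval 0.80 to 0.91), 0.41 for Gzmb (0.36 to 0.47), 1.45 for Gzmc (1.10 to 1.83) and -1.51 for Ifng (-1.64 to -1.39). Prf1 (0.10, -0.12 to 0.32) had an interval that held 0, and Nkg7 (-0.07) and Fasl (-0.20) lay just below 0. Of 7 members with a mean of at least 20 CPM, Gzmc was past 2-fold upward and Ifng past 2-fold downward, against 0.693% of all such genes. The early response genes, which include heat shock genes that sample handling can induce, summed to 5508 CPM at D0 and 4497 at D5, and none of the 8 was past 2-fold. The macrophage marker Lyz2 (3.42) and the dendritic cell marker H2-Ab1 (2.14) were past 2-fold above D0 on that scale, and the cell cycle genes Top2a (-1.39) and Stmn1 (-1.29) past 2-fold below. The part of these genes' sources in the member values was not tested. The Gzmc value rested on few cells at D0, where 10 cells held 64 of 67 UMIs, 47 of them in 1 cell. Without the 10 richest cells of each arm Gzmc was at 1.61 CPM at D0 and 78.3 at D5. Those 10 were a larger part of the 353 cells at D0 than of the 1980 at D5, so this cut lowers D0 more.

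At D9 Gzma, Gzmb and Prf1 stood lower than at D5: the log2 ratio of D9 to D5 was -1.08 for Gzma (-1.13 to -1.02), -1.16 for Gzmb (-1.23 to -1.09), and -1.23 for Prf1 (-1.53 to -0.94). Gzmc was at -0.35 (-0.59 to -0.12), but at 0.0467 with the receptor split at 2 UMIs and at 0.41 with the receptors counted after thinning. Cells with just 1 receptor UMI were 169 of 358 at D9 and 311 of 1980 at D5. In cells with 4 or more, D9 and D5 were closer: Gzma at 2914 and 3482 CPM, Gzmb at 1632 and 2302 and Prf1 at 78.4 and 131. Against D0, Ifng was at -1.76 (-1.96 to -1.56), Prf1 at -1.13 (-1.49 to -0.78), Gzmb at -0.75 (-0.84 to -0.66) and Gzma at -0.22 (-0.30 to -0.15), the last turning to 0.14 with the split at 2 UMIs. Of 7 members Ifng was past 2-fold on the scale with 10 CPM added, against 1.67% of all genes. The early response sum was 3778 CPM at D9, with Jun, Egr1, Hspa1a and Hspa1b past 2-fold below D0. With the 10 Gzma-richest cells of each arm left out, Gzma was at 1131 CPM at D0, 2616 at D5 and 628 at D9, so these cells held a large part of the D9 level. The 10 were a larger part of the 353 cells at D0 and 358 at D9 than of the 1980 at D5.

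The late liver arms came from another lane. Set against D0 across lanes, D19 had Gzma at a log2 ratio of 0.39 (0.33 to 0.45), Gzmb at 0.21 (0.15 to 0.28), Gzmc at 1.46 (1.08 to 1.86), Nkg7 at -1.14 (-1.21 to -1.06) and Ifng at -1.84 (-2.02 to -1.67), and day and lane cannot be told apart. The Gzmb ratio turned to -0.13 with the receptors counted after thinning and to -0.16 as a mean over cells. Within the late lane, STOP over D19 was at -0.46 for Gzma (-0.56 to -0.36), -0.10 for Gzmb, 0.90 for Nkg7 (0.78 to 1.01) and 0.78 for Ifng (0.48 to 1.08). None of 7 members was past 2-fold there, against 2.58% of all genes. The Gzmb ratio was 0.00909 with the split at 2 UMIs and 0.0489 after thinning. Past 2-fold above D19 at STOP were Jun, Hspa1a and Hspa1b, the cell cycle genes Mki67, Top2a and Stmn1, the B cell markers Cd79b and Ighm, the hepatocyte gene Alb and Klre1, used for the split, and their part was not tested.

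The D5-DT liver arm had less granzyme RNA than D5. The log2 ratio was -1.05 for Gzma (-1.08 to -1.01), -1.07 for Gzmb (-1.11 to -1.02), -1.68 for Gzmc (-1.93 to -1.43) and -0.90 for Prf1 (-1.09 to -0.72), and -0.35 for Ifng (-0.49 to -0.22). Of 7 members, Gzma, Gzmb and Gzmc were past 2-fold below D5, against 1.39% of all genes. The 2 arms differed in lane and genotype as well as toxin, and these cannot be told apart. Cells with 4 or more receptor UMIs were 336 of 775 at D5-DT and 1301 of 1980 at D5. In them Gzma was at 2125 and 3482 CPM and Gzmb at 1329 and 2302. With 2 or 3 receptor UMIs, Gzma was at 393 and 1090 CPM and Gzmb at 454 and 849. With 1, Gzma was higher at D5-DT (508 and 383 CPM) and Gzmb lower (329 and 385). The 4 monocyte and macrophage markers summed to 851 CPM in the D5-DT arm, all above 20 CPM, and to 155 at D5, and the 3 neutrophil markers to 458 and 8.21. The cell cycle genes Top2a (1.72), Mki67 (1.53) and Stmn1 (1.23) were past 2-fold above D5 on the scale with 10 CPM added, and Hspa1a (-2.35), Hspa1b (-1.79), Jun (-1.04) and the receptor gene Klre1 (-1.00) past 2-fold below. The part of these in the granzyme values was not tested.

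The LN receptor-positive cells were compared over the same days where both arms existed. From D0 to D5, Gzma was at -1.36 (-1.61 to -1.11), Gzmm at -1.05 (-1.46 to -0.62), Ifng at -0.11 (-0.35 to 0.13) and Fasl at -0.16 (-0.40 to 0.09). Of 7 members Gzma was past 2-fold, against 0.288% of all genes, but its ratio was 0.82 with the receptors counted after thinning, and in both arms its share of cells was below that of the T17-type cells. Fos, Fosb and Egr1 were past 2-fold higher at LN D5, and their part was not tested. STOP over D19 rested on 103 and 42 cells, and none of 4 members was past 2-fold, against 12.8% of all genes. The D5-DT LN arm over LN D5 had Gzma at 1.38 (1.15 to 1.60), Gzmb at 1.54 (1.17 to 1.91), Fasl at -0.95 (-1.26 to -0.64) and Ifng at -0.99 (-1.30 to -0.69), with monocyte and macrophage markers at 1325 CPM against 30.2. The Fasl ratio was 0.0438 with the receptor split at 2 UMIs.

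The LN NK cells, measured in their own libraries, set the scale. Gzma was at 3307 CPM at D0, 3137 at D5 and 689 at D19. Gzmb was at 381, 347 and 63.2 CPM, Prf1 at 433, 306 and 64.6 and Nkg7 at 2258, 1384 and 729. Fasl was at 180, 154 and 90.9 CPM and Ifng at 270, 140 and 119. The D19 library was the low one for each of these 6 genes. Gzmc stayed at 5.55 to 7.90 CPM and Gzmk at 0 to 2.78.

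CD8 T cells had less of nearly all of it. They carried Gzma at 67.7, 5.19 and 34.8 CPM, Gzmb at 15.3, 2.50 and 3.33 and Ifng at 49.9, 12.5 and 3.83, but Gzmm at 56.5, 26.3 and 8.99, above the NK cells' 24.1, 11.1 and 1.32. In the fit over the 3 libraries all 9 members were called between NK and CD8 T cells, 7 higher and 2 lower in NK cells, where 30.7% of the 9987 genes tested were called. Gzmc, Gzmk (4, 2 and 0 UMIs in NK cells) and Gzmm (52, 8 and 1) passed the filter on low counts through the class where they were high. The calls of Gzmc, Gzmk and Gzmm are therefore a description. Gzma was higher in NK cells by 5.63 on the log2 scale (SE 0.60, edgeR adjusted p = 9.92e-06), Gzmb by 4.76 (SE 0.31, adjusted p = 9.5e-08), Fasl by 2.93 (SE 0.13, adjusted p = 2.16e-09), Ifng by 2.80 (SE 0.29, adjusted p = 8.33e-06), Prf1 by 2.27 (SE 0.18, adjusted p = 6.03e-07) and Nkg7 by 0.95 (SE 0.10, adjusted p = 1.44e-05). Gzmm (log2 difference -1.71, SE 0.21, adjusted p = 3.79e-05) and Gzmk (-3.10, SE 0.50, adjusted p = 0.000366) were lower in NK cells. The markers Lyz2 (2.33), H2-Ab1 (1.94), Zbtb46 (1.84), Flt3 (1.66) and Cd68 (1.44) of macrophages and dendritic cells were also higher in NK cells. The dendritic cell marker Ccr7 ran the other way (-0.76) and was not called. The part of such cells was not tested.

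Gzmc was the weakest of these calls, at 2.09 (SE 0.70, edgeR adjusted p = 0.0378), and was lost without D19 (adjusted p = 0.166), with surface protein gates (0.0879) and with Ncr1 required (0.0593), as Gzmk was without D0 (0.0565). The CD8 T cells with a UMI of Il2rb or Cxcr3, a memory-type set, had Gzma at 112, 8.21 and 105 CPM, Gzmm at 103, 53.0 and 20.1 and Ifng at 84.7, 25.0 and 9.53, while the rest, a naive-type set, had Gzmm at 9.73, 1.72 and 3.89.

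The NK level of most members was lower at D19 than at D0. The log2 ratio was -2.26 for Gzma (-2.39 to -2.13), -2.59 for Gzmb (-3.04 to -2.17), -2.74 for Prf1 (-3.19 to -2.33), -1.63 for Nkg7 (-1.76 to -1.51), -1.19 for Ifng (-1.53 to -0.87) and -0.99 for Fasl (-1.38 to -0.62). Of 6 members with a mean of at least 20 CPM, 5 were past 2-fold downward, against 5.92% of all such genes. From D0 to D5 none of 6 was, against 1.8%, with Gzma at -0.08 (-0.15 to -0.01) and Ifng at -0.94 (-1.26 to -0.64). The early response sum moved with this, from 7906 CPM at D0 through 4603 at D5 to 3486 at D19, with Fos, Jun, Hspa1a and Hspa1b past 2-fold lower at D19, and its part was not tested.

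The lower D19 level was also seen in subsets of the NK cells, chosen after the levels had been seen. The gate let in cells with dendritic cell RNA (the 4 dendritic cell markers summed to 1055, 1495 and 1169 CPM). At D19, Flt3 and Ccr7 of these markers were past 2-fold above D0 (Ccr7 from 171 to 491 CPM) and Klre1, a gate gene, past 2-fold below (862 to 273 CPM), and the part of such cells in the D19 levels was not tested. NK cells with no UMI of H2-Ab1, Ccr7, Lyz2 and Il7r numbered 201, 43 and 56 and held Gzma at 5699, 5287 and 1836 CPM, Gzmb at 647, 647 and 74.5 and Prf1 at 674, 505 and 149. NK cells with a UMI of Ncr1, the gene of NKp46, held Gzma at 3508, 3608 and 748 CPM. Gzma was detected in 49.7%, 49.5% and 30.6% of thinned NK cells (57.3%, 54.1% and 39.3% unthinned), against 0.395%, 0.356% and 0.311% of B cells. Day and library cannot be told apart.

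CD8 T cells also differed between these libraries. Of 5 members, Gzma (-3.71, -4.30 to -3.17) and Ifng (interval -2.38 to -1.63) were past 2-fold lower at D5 than at D0, against 1.01% of all genes. At D19, 4 of 5 were past 2-fold lower, against 3.12%: Gzmm (-2.65), Ifng (-3.70), Prf1 (-1.44) and Nkg7 (-1.14). Jun, Hspa1a and Hspa1b were past 2-fold lower at both days (Jun 501, 201 and 117 CPM), H2-Ab1 was past 2-fold lower at D19, and their part was not tested. Gzma in the memory-type cells was at -0.10 at D19 (-0.35 to 0.14).

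Set beside these NK cells, the receptor-positive γδ T cells of the LN had far less Gzma, Gzmb and Prf1, while no difference passed the test for Nkg7, Fasl and Ifng. In the fit over D0, D5 and D19, with the day as a block, 4 of the 7 members tested differed, 1 higher and 3 lower in γδ T cells, where 11.1% of the 7325 genes tested were called. Lower in γδ T cells were Gzma (log2 difference -5.16, SE 0.49, edgeR adjusted p = 5.34e-09), Gzmb (-3.75, SE 0.29, adjusted p = 1.57e-10) and Prf1 (-2.69, SE 0.28, adjusted p = 3.79e-08). Gzmm was higher by 1.38 (SE 0.34, adjusted p = 0.00686). It passed the filter on low counts through the γδ T side, with 52, 8 and 1 UMIs in NK cells, so this call is a description. Fasl (-0.23, SE 0.23, adjusted p = 0.614), Ifng (-0.31, SE 0.25, adjusted p = 0.498) and Nkg7 (-0.81, SE 0.34, adjusted p = 0.134) did not pass, which does not show that they were equal.

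Without the D5 pair Gzmm was lost (adjusted p = 0.0748), DESeq2 did not call it (0.251), and without D0 it was too low to be tested. Nkg7 was called lower without the D19 pair (adjusted p = 0.0012) and by DESeq2 (0.0196). The γδ T and NK cells came from different sorts and libraries, and lineage and library cannot be told apart. The 8 T cell receptor genes summed to 2600 to 4057 CPM in the γδ T cells of these 3 arms and to 107 to 192 in the NK cells, with Cd3d, Cd3e and Cd3g at 0 by the gate. The dendritic cell markers Flt3 (log2 difference -4.99), H2-Ab1 (-3.45) and Ccr7 (-1.99) and the macrophage marker Lyz2 (-2.62) were lower in γδ T than in NK cells in the same fit, and the B cell markers Cd79a and Cd79b (2.55) higher. Cd79a was barred by the NK gate. The part of such cells in the member differences was not tested.

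The comparison with liver γδ T cells gave another order, over which the diet days differed. Gzma in liver receptor-positive cells was below LN NK cells by log2 ratios of -1.12 (-1.19 to -1.06) at D0 and -0.20 (-0.26 to -0.13) at D5 and above them by 1.53 (1.40 to 1.66) at D19. At D19 the NK level was 689 CPM and the liver γδ T level 1984. The NK cells without H2-Ab1, Ccr7, Lyz2 and Il7r UMIs were at 1836 CPM there, nearer to the liver level. Gzmb was above NK cells at all 3 days, by 1.86, 2.41 and 4.67, and Gzmc by 2.65, 3.78 and 3.61. Prf1 was below all gated NK cells at D0 (-2.08) and D5 (-1.49) and level with them at D19 (0.11). At D19 the NK cells without H2-Ab1, Ccr7, Lyz2 and Il7r UMIs held Prf1 at 149 CPM, above the 69.7 of liver γδ T cells.

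Against all gated NK cells, liver γδ T cells were at log2 ratios of -0.50, 0.13 and -0.01 for Nkg7 at D0, D5 and D19. Fasl was there at 0.00, 0.02 and 0.62, and Ifng at 0.57, 0.00 and -0.09. The NK cells without H2-Ab1, Ccr7, Lyz2 and Il7r UMIs held more Nkg7, at 3172, 2277 and 1144 CPM. Liver γδ T cells held it at 1592, 1520 and 724. Those NK cells held Fasl at 230, 237 and 144 CPM (liver γδ T cells 181, 157 and 139). They held Ifng at 337, 219 and 160 CPM (liver γδ T cells 401, 140 and 112). In LN γδ T cells Gzma was at -4.23 and -5.52 of NK at D0 and D5, Gzmb at -3.82, -3.81 and -2.42, and Ifng at -0.81, 0.02 and 0.38. These ratios pair different tissues, sorts and lanes, and none was tested in liver. The subset of NK cells without H2-Ab1, Ccr7, Lyz2 and Il7r UMIs had Gzma at 5699, 5287 and 1836 CPM at D0, D5 and D19. Liver receptor-positive cells had 1517, 2739 and 1984 CPM on the same days.

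**Figure D5:**
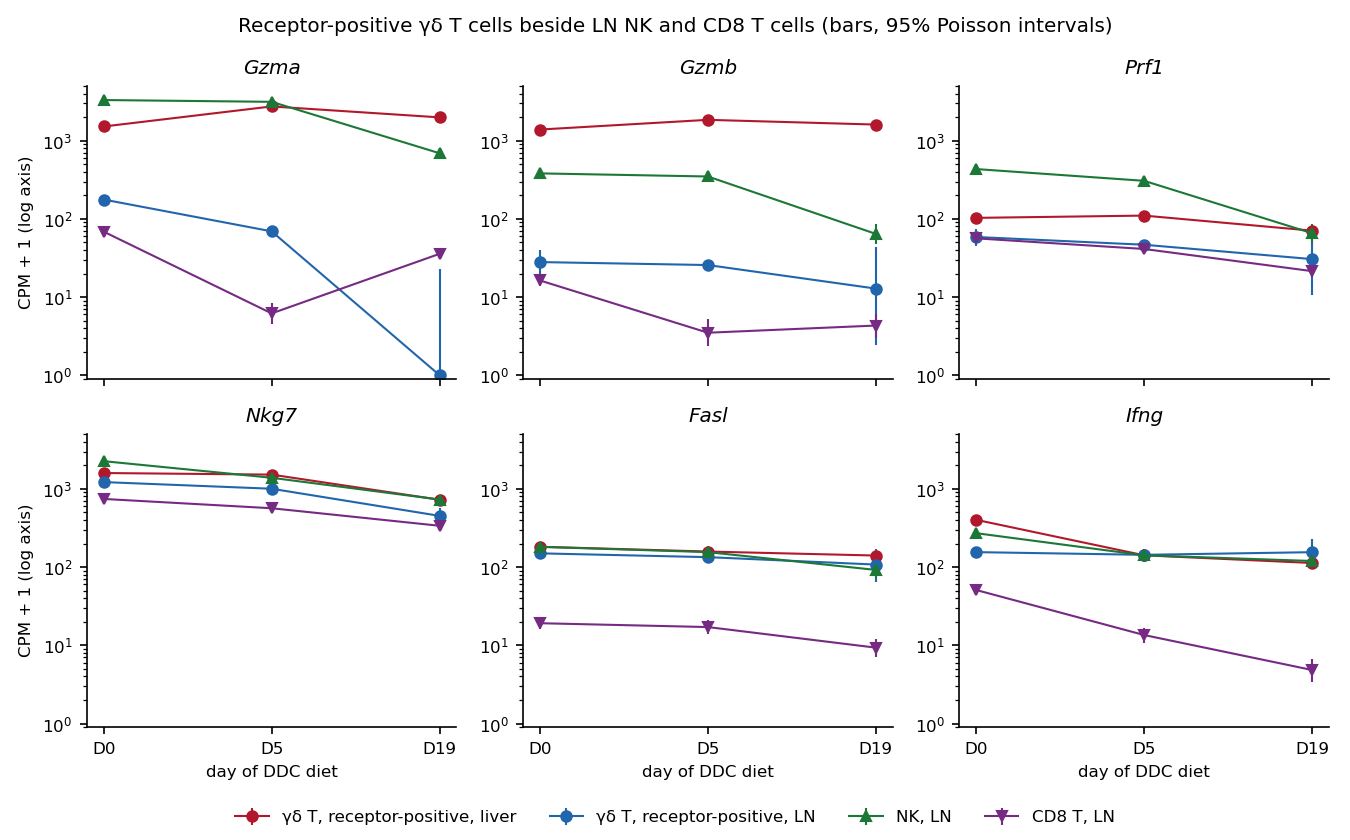
Levels (CPM of summed UMIs plus 1, log axis, with 95% Poisson intervals) of 6 members in receptor-positive γδ T cells of liver and LN and in LN NK and CD8 T cells at D0, D5 and D19. Gzma of NK cells is at 3137 CPM at D5 and 689 at D19, below liver γδ T cells (1984), while LN γδ T cells stay at 176 CPM or less.

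The genes that act with these members were read from fixed lists. Of 10 regulators and cytokine receptors, 8 were higher in receptor-positive than in receptor-negative γδ T cells (median log2 difference 1.07, against -0.01 over all genes tested, of which 20.2% were called in either direction), among them Il12rb2, a chain of the interleukin-12 receptor (2.86, edgeR adjusted p = 1.07e-06), Tbx21, the gene of T-bet (1.86, adjusted p = 3.8e-06), Hopx (1.44, adjusted p = 3.17e-06) and Il2rb (1.23, adjusted p = 5.39e-06). Both protease inhibitors that shield cells from their own granzymes were higher, Serpinb9 by 1.68 (adjusted p = 8.42e-05) and Serpinb6b by 1.62 (adjusted p = 0.000379). Of 5 genes of granule content and processing, Ctsw (1.48) and Cst7 (0.40) were higher and Srgn, the granule proteoglycan (-0.22), and Lamp1 (-0.44) lower. Of 5 genes of granule release, Lyst was higher (1.03) and Stx11 lower (-0.67). Tnfsf10, the gene of TRAIL, was higher (1.71), and Tnf (-0.79) and Lta (-0.78) were lower. None of the 5 other granzymes Gzmd, Gzme, Gzmf, Gzmg and Gzmn passed the filter.

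Between liver and LN, where 7.19% of all genes were called, 4 of the 10 regulators were: Prdm1 (1.11, edgeR adjusted p = 0.00969) and Il12rb2 (1.58, adjusted p = 0.00321) were higher in liver, and Eomes (-2.15, adjusted p = 8.89e-05) and Il18rap (-0.86, adjusted p = 0.0366) lower. Tnfsf10 was higher in liver (1.47, adjusted p = 6.38e-05), as were Srgn (0.62) and Cst7 (0.56), and 0 of 5 release genes and 0 of 2 inhibitors were called. Of the early response genes Hspa1a (4.52), Hspa1b (3.87) and Jun (0.93) were higher in liver. So were the NK genes Tyrobp (1.72), Fcer1g (1.45), Ncr1 (1.06) and Klrk1 (0.85). Klre1 (1.21) and Klrb1c (0.57) chose these cells, and their differences are a description. The dendritic cell markers Ccr7 (-2.76) and H2-Ab1 (-2.31) and Cd79a (-4.32) and Ighm (-0.79) of the B cell markers were lower in liver (summed B cell markers 57.2 to 167 CPM in liver and 154 to 438 in LN receptor-positive cells). Their part in the tissue differences was not tested.

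Against NK cells, where 11.1% of all genes were called, LN γδ T cells had less Zeb2 (-2.97, edgeR adjusted p = 1.46e-08) and more Hopx (0.92, adjusted p = 0.0105). Eomes was at -1.66, but it was among the genes that admitted NK cells, so that value is a description. Serpinb9 was lower (-0.97, adjusted p = 0.0152), Lyst higher (1.27, adjusted p = 0.00118) and Stx11 lower (-1.31, adjusted p = 0.036), and none of 3 tested ligands and cytokines was called. Fos, Jun and Egr1 of 6 early response genes were lower in γδ T cells. NK cells exceeded CD8 T cells in 8 of 10 regulators (Eomes, a gate gene, among them), led by Il12rb2 (4.35) and Zeb2 (3.27), in both inhibitors, Serpinb9 (3.14) and Serpinb6b (2.26), and in 7 of 8 early response genes, where 30.7% of all genes were called in either direction.

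Over the 22 γδ T sums (11 arms, 2 classes) the members were compared by their levels. Pearson's r of log2(CPM + 10) was 0.95 for Gzmb with Gzmc, 0.87 for Gzma with Gzmb and 0.95 for Ifng with Fasl, but 0.29 for Gzma with Ifng. With Ifng, r was 0.83 for Nkg7, 0.81 for Prf1, 0.59 for Gzmm and 0.19 for Gzmk, and with Gzma it was 0.56 for Prf1, 0.49 for Gzmk and -0.17 for Gzmm. Among 5773 other genes, the ones most like Gzma were Cd8a (0.93), Ccl3 (0.85) and Klra9 (0.83), those most like Gzmb were Klra9 (0.94), Klra5 (0.92) and Abcb9 (0.90), and those most like Ifng were Tbx21 (0.96), Xcl1 (0.92) and Ncr1 (0.91). Sums of 1 pool share a library and sums of 1 arm share its cells' handling, so these values describe likeness only.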

How the data were processed

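The authors counted reads with Cell Ranger on mm10 and deposited raw matrices of UMI counts for RNA and antibody tags per barcode. Barcodes with at least 1000 RNA UMIs, at least 500 genes and at most 10% mitochondrial UMIs were kept. A γδ T cell was assigned to an arm when its top hashtag had at least 10 UMIs and at least 3 times the next. This removed doublets between arms, and no doublet caller was run. NK cells needed a Klre1 or Klrb1c UMI, at least 2 of Klre1, Klrb1c, Ncr1, Klrk1 and Eomes, and no UMI of Cd3d, Cd3e, Cd3g, Cd8b1, Cd79a and Siglech. CD8 T cells needed Cd8b1 and Cd3 UMIs and none of Cd4, Cd79a and Siglech.

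UMI counts were summed per class and arm, scaled to CPM and tested with edgeR 4.0.16 (R 4.3.3), DESeq2 1.42.0 being an alternative. Intervals and thinning used Python 3.11.15 with numpy 2.4.6, scipy 1.17.1 and pandas 2.3.3. Contrasts without replicates were called past 2-fold on log2(CPM + 10) among genes with a mean of at least 20 CPM. Intervals and the floor of 3 counts cover counting error alone. On simulated data with known changes, the fits recovered 94%, 18%, 15% and 11% of 2-fold and 100%, 99%, 88% and 87% of 4-fold changes (receptor classes, tissues, LN γδ T against NK, NK against CD8 T). They made 10, 2, 4 and 2 false calls. The simulation gave every gene the same dispersion, so these shares do not hold for genes that vary more between arms.

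The members and lists were chosen with earlier results of these data known. All 9 members are named, with at most 4 genes per list, the largest differences in size, and the 3 genes most like each of Gzma, Gzmb and Ifng. Tried were other cell and hashtag filters, receptor splits, gates, normalizations, a subtraction of free RNA and leaving out each arm or library. The interaction of class and tissue, the NK subsets, the thinned detection shares of NK cells and the levels without the 10 richest cells were added after the data had been seen. Antibody counts of the CITE libraries were used for the surface check.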

Additional observations from a re-analysis of the deposited data

Results flagged for a closer look

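For 5 members the difference between receptor-positive and receptor-negative γδ T cells was not the same in liver and LN arms, by the edgeR interaction test: the extra log2 difference in liver was 5.01 for Gzma, 4.23 for Gzmc, 3.50 for Gzmb, 1.73 for Nkg7 and 1.51 for Prf1. The Gzmc value is a description, since Gzmc was at 3.77 CPM or less in both classes of every LN arm.

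Other pairs of contrasts ran in opposite directions, and none of these differences was tested. Receptor-positive Gzma from D0 to D5 had a log2 ratio of 0.85 in liver and -1.36 in LN, but the LN value was 0.82 with the receptors counted after thinning, and 194 of the 195 Gzma UMIs at LN D0 lay in 10 cells. From D5 to D5-DT, Gzma was at -1.05 in liver and 1.38 in LN, Gzmb at -1.07 and 1.54 and Gzmc at -1.68 and 3.20, the last from 4 and 2 UMIs. The LN arm of D5-DT shared a lane with its liver arm, and 16.98% of its T17-type cells had a Gzma UMI after thinning. From D0 to D5, Gzma was at 0.85 in liver γδ T cells and -0.08 in LN NK cells, the latter being 0.0403 with Ncr1 required. From D0 to D19, Gzma was at 0.39 in liver γδ T cells and -2.26 in LN NK cells, and Gzmb at 0.21 and -2.59, but the liver value of Gzmb was -0.13 with the receptors counted after thinning and -0.16 as a mean over cells. Each arm or library was the only sample of its condition, so no sample was tested for standing apart from its group.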

How the results depend on the processing

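The counts of members called were within 1.5 times the reported value under nearly all settings. Leaving out each arm, condition or library in turn gave 7 to 8 members for receptor-positive against receptor-negative cells, 4 to 6 for liver against LN, 3 to 5 for LN γδ T against NK cells and 7 to 9 for NK against CD8 T cells. With LN arms alone, 4 members were higher in receptor-positive cells and 428 genes were called against 2130. Past 2-fold over the diet were 4 pairs of member and contrast, and 7 with the receptor split at 2 UMIs. The receptor-positive share at liver D9 minus D5 was -36.76 percentage points, and -26.94 with the split on thinned UMIs.

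Directions that reversed were as follows, and the cause was not tested. With LN arms alone, Gzma was at -1.00. For LN γδ T against NK cells, Fasl was at 0.0196 on the thinned split, and Ifng ran from -0.51 to 0.00534, above 0 without D0. With the split at 2 UMIs, D9 over D0 was 0.14 for Gzma, D9 over D5 was 0.0467 for Gzmc and 0.0448 for Ifng, STOP over D19 was 0.00909 for Gzmb, LN D5-DT over D5 was 0.0438 for Fasl, and D5-DT liver over LN was -0.24 for Fasl and -0.48 for Ifng. On the thinned split, D9 over D5 was 0.41 for Gzmc, STOP over D19 was 0.0489 and D19 over D0 -0.13 for Gzmb, LN D5 over D0 was 0.82 for Gzma, LN D5-DT over D5 was 0.10 for Gzmm, and D5-DT liver over LN was -0.25 for Ifng. Gzmb D19 over D0 was -0.16 as a mean over cells. Gzma D5 over D0 in NK cells was 0.0403 with Ncr1 required, and Gzmc D19 over D0 in CD8 T cells 0.44 without the deepest 5% of cells.

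Gene counts moved by over 1.5 times for liver against LN (628 genes, 1126 without the filter, 412 without D0 and 313 without D5), for LN γδ T against NK cells (813, of them 343 higher and 470 lower, 443 by DESeq2, of them 124 higher and 319 lower, 316 without D0, 528 without D5 and 1227 without D19) and for NK against CD8 T cells (3071, and 1806 by DESeq2). All 4 fits already held the arm, condition, day or library as a block. Beyond these blocks, no paired analysis was possible because the labels give no replicate numbers that several groups share. The 42 receptor-positive cells of LN D19 limit what that arm can show.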
